A study of Mus musculus with 24 samples.

Results

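Tumour myeloid cells restrain T cells through a small set of effector genes, and 10 of these were followed here: Arg1, Nos2, Ptgs2, Il10, Tgfb1, Cd274, Pdcd1lg2, Vsir, Havcr2 and Il4ra. They were listed by symbol as suppressive effectors, under a rule that names no measured value but was set with earlier results of these data known, and all 10 symbols matched an identifier among the 54446 of the count tables. All 10 also passed the filter on low counts, as did 16090 genes in the Input libraries. The libraries were of CD11b+ myeloid cells from MC38 tumours, which grow from a mouse colon carcinoma line and were raised in C57BL/6J mice. Polyadenylated RNA was sequenced as Input and after pull-down of fragments with an antibody to N6-methyladenosine (m6A IP), the assay known as MeRIP-seq. WT mice carried floxed Ythdf2 alleles without Cre, and cKO mice carried the same alleles with Cre driven from Lyz2, so every group shares the floxed alleles and deletion in cKO is limited to cells that express Lyz2. Tumours were untreated (Ctrl) or had received 20 Gy 3 days earlier (IR). The 24 libraries form 8 groups of 3, with each of the 4 combinations of genotype and treatment as Input and as IP. The cells of each replicate were pooled from several mice, and the methods call the replicates technical in one place and biological in another, so p-values measure the spread between these libraries.

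These genes act by different routes. Arginase 1 (Arg1) and inducible nitric oxide synthase (Nos2) consume the arginine that T cells need, and cyclooxygenase 2 (Ptgs2) makes the precursor of prostaglandin E2. Il10 and Tgfb1 encode secreted cytokines that dampen antigen presentation and T cell activation. Cd274 (PD-L1) and Pdcd1lg2 (PD-L2) are the ligands of PD-1, Vsir (VISTA) is an inhibitory B7-like protein of myeloid cells, and Havcr2 (TIM-3) is an inhibitory receptor. Il4ra is the shared receptor chain through which IL-4 and IL-13 induce Arg1 and alternative activation. The m6A mark is placed on messenger RNA by a methyltransferase complex, often within GGAC or GGACT, and the reader protein YTHDF2 directs marked transcripts to decay.

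The depth was 65.2M to 83.7M gene counts (M, mega) for Input and 68.8M to 86.4M for IP. Lyz2, the locus of the Cre, stood at a mean of 22210 CPM (counts per 1M gene counts of the scaled library) in WT Ctrl Input and 22320 in WT IR Input, against 326 in cKO Ctrl Input and 440 in cKO IR Input. The IP libraries of Ctrl followed this order, but those of IR did not: Lyz2 lay between 88.5 and 91.1 CPM in IP under the label WT IR and between 19517 and 19808 under the label cKO IR. The labels of the 6 IR IP libraries therefore go against Lyz2, and IP levels and IP over Input under IR are tested as the mean over both genotype labels, which is the same whichever label is right. Peaks are given by label, so that those of WT IR and cKO IR would change places if the labels were exchanged. Ythdf2 counts, which cover the whole gene and so do not resolve the deleted part, were higher in cKO Input than in WT Input (mean 193 against 104.5 CPM in Ctrl, 239.5 against 113 in IR). The summed level of a T cell list of 7 genes stayed at or under 2.81 CPM in every Input and that of a B cell list of 5 genes at or under 1.15 CPM, beside 5223 CPM or more for 8 macrophage genes. Replicates 1 and 2 of WT IR Input differed by a chi-square of 37.6 per degree of freedom over genes and replicates 1 and 3 by 17.95, against 3.53 to 9.72 for the other pairs within groups. In bulk RNA, fewer cells of a type and less RNA per cell cannot be told apart.

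Of the 10 genes, 5 carried m6A peaks in every group, 3 carried none in any library, and Havcr2 and Cd274 lay between. A consensus peak is one that the authors' peak caller placed on the strand of the gene in all 3 replicates of a group. Arg1, Tgfb1, Pdcd1lg2, Vsir and Il4ra had one in all 4 combinations of genotype and treatment, and Havcr2 in all but WT Ctrl. Thus 5 of 10 genes had a consensus peak in WT Ctrl, where 27.7% of the 17367 genes considered had one, and 6 of 10 had one in cKO Ctrl (25.8% of all genes) and under the IR labels WT IR (23.4%) and cKO IR (20.8%). With all 4 groups required it was 5 of 10, against 16.1% of all genes. Requiring peaks of at least 4-fold left 2 genes in WT Ctrl (10% of all genes), 4 in cKO Ctrl (8.57%), 3 under the label WT IR (7.26%) and 4 under the label cKO IR (6.41%). Nos2, Ptgs2 and Il10 had no deposited peak in any of the 12 IP libraries.

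Arg1 (ENSMUSG00000019987.9, chr10:24915221-24927484 in GRCm38, minus strand) was covered along much of its messenger. Its 6 peak regions touched each exon from 2 to 8 of its 8 exons, including the coding end and 3′ UTR in exon 8, and 42.1 to 56.3% of its exon bases lay in peaks in each library. The fold enrichment that the peak caller gave ran from 4.1 to 19.7. In cKO Ctrl 4 consensus peaks were counted, and 6 in each other group. The regions over exons 2, 4 and 5 were missing from the cKO Ctrl consensus, although they were found in 10, 11 and 11 of the 12 libraries. The regions over exon 3, exons 6 and 7, and exon 8 were in all 12 libraries. The sequences that follow give the exonic GGACT nearest the summit of the strongest peak of each of these 3 regions, or GGAC where a region held no GGACT, in capitals. They read 5′ to 3′ on the coding strand and are shown because this is the usual m6A context. They lie at chr10:24920760-24920787, chr10:24916107-24916134 and chr10:24915752-24915780, in coding sequence, and the first base of the last one is intronic. The summits of the strongest peaks of these 3 regions are themselves placed in introns, so the motifs shown do not locate the marked base.
Arg1 exon 3: gagagaccacggGGACctggcctttgtt
Arg1 exon 7: tgtcgacgggctGGACccagcattcacc
Arg1 exon 8: gggctcctttcaGGACTagatatcatgga

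The checkpoint ligands followed with fewer or lower peaks. Pdcd1lg2 (ENSMUSG00000016498.9, chr19:29410919-29471161, plus strand, overlapped on the other strand by A930007I19Rik) had regions over coding exons 2 and 3 and over the 3′ UTR in exon 5 in all 12 libraries. A further region over exon 4, at chr19:29454369-29454574, was in 7 libraries and reached consensus in WT Ctrl and under the label cKO IR. Vsir (ENSMUSG00000020101.14, chr10:60346851-60372684, plus strand, with Cdh23 on the other strand) had its longest region over the last exon, where 2815 of 2850 exonic bases are 3′ UTR. Of the exon bases of Vsir, 27.9 to 32.6% lay in peaks in the Ctrl libraries and 39.2 to 74.2% in the IR libraries. Cd274 (ENSMUSG00000016496.7, chr19:29367455-29388095, plus strand) had scattered peaks in 5 libraries and no consensus peak in any group. Of the 3 replicates labelled cKO IR 2 shared a Cd274 peak, so that leaving out replicate 1 would add it there. The sequences show 2 sites of Pdcd1lg2, at chr19:29446048-29446075 and chr19:29470564-29470592, and 3 of Vsir, at chr10:60357886-60357913, chr10:60368638-60368665 and chr10:60369389-60369417, with the motif in capitals.
Pdcd1lg2 exon 3: ccagccacatcaGGACccccgaaggcct
Pdcd1lg2 exon 5: caagagacttctGGACTcaaagtgagaat
Vsir exon 2: gtgtgtcccgagGGACagaatgccaccc
Vsir exon 6: ccttcggagtcaGGACggtacctgctct
Vsir exon 7: tgctcctctgttGGACTgactctatcccc

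The 2 other genes with a consensus peak in every group are the receptor chain Il4ra and the cytokine Tgfb1. Il4ra (ENSMUSG00000030748.9, chr7:125552120-125579474, plus strand, with Gm44876 on the other strand) carried both of its regions in the last exon, exon 11, with folds of 1.3 to 3.57. Tgfb1 (ENSMUSG00000002603.15, chr7:25687002-25705077, plus strand) had its shared region in the 5′ UTR of exon 1, with folds of 1.39 to 1.83. The sites shown are at chr7:125575655-125575682 and chr7:125576563-125576591 for Il4ra, both coding, and at chr7:25687352-25687380 for Tgfb1.
Il4ra exon 11, region 1: tggaggtcagcaGGACcgtcctctggcc
Il4ra exon 11, region 2: ttatttactttcGGACTagacacggagct
Tgfb1 exon 1: ggcaggacctgaGGACTccagacagccct

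Havcr2 (ENSMUSG00000020399.14, chr11:46454935-46481255, plus strand) had its thinnest peaks in WT Ctrl. Its region of 1921 bases lay over the last exon, exon 7, mostly 3′ UTR. In WT Ctrl the share of exon bases in peaks was 31.3% in replicate 1, 15.7% in replicate 2 and 0% in replicate 3. In the other 9 libraries it was 37.0 to 67.4%, above every WT Ctrl library. Without WT Ctrl replicate 3, Havcr2 would have a consensus peak in that group too. Of the 20 regions of the 6 genes, 16 began 65 to 144 bases (median 114) before their exon in the direction of the transcript. In all, 12 of the 20 regions were present in all 4 groups, and 11 of these 12 held GGAC on the coding strand of their exons. The longer motif GGACT was in 5, and each such match is also among those of the shorter motif. These 12 regions hold 126 to 2850 exonic bases. The median over the transcripts of 12588 tested genes was 4.12 GGAC and 1.05 GGACT per kb. The counts of regions with a motif thus depend on region length, and were not set against other regions of the same length. Over all consensus peaks, windows reaching 50 bases to either side of the summit held GGAC in 34.9 to 36.5% and GGACT in 11 to 11.7%, against 26.2 to 27.8% and 8.78 to 9.29% in windows of the same length centred 500 bases up- or downstream. Centred 75 bases downstream of the summit, such windows held GGAC in 36.6 to 39.0% and GGACT in 10.8 to 11.6%. These windows are shorter than most regions, so the shares are not set against each other. The motif is not confined to genes with peaks: the Ptgs2 transcript holds 8 GGACT and that of Il10 3. The 1 Nos2 transcript searched holds 14 GGAC and no GGACT. It has 3429 bases, where the merged exons of Nos2 have 4412, so the other exon bases were not searched.

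**Figure D1:**
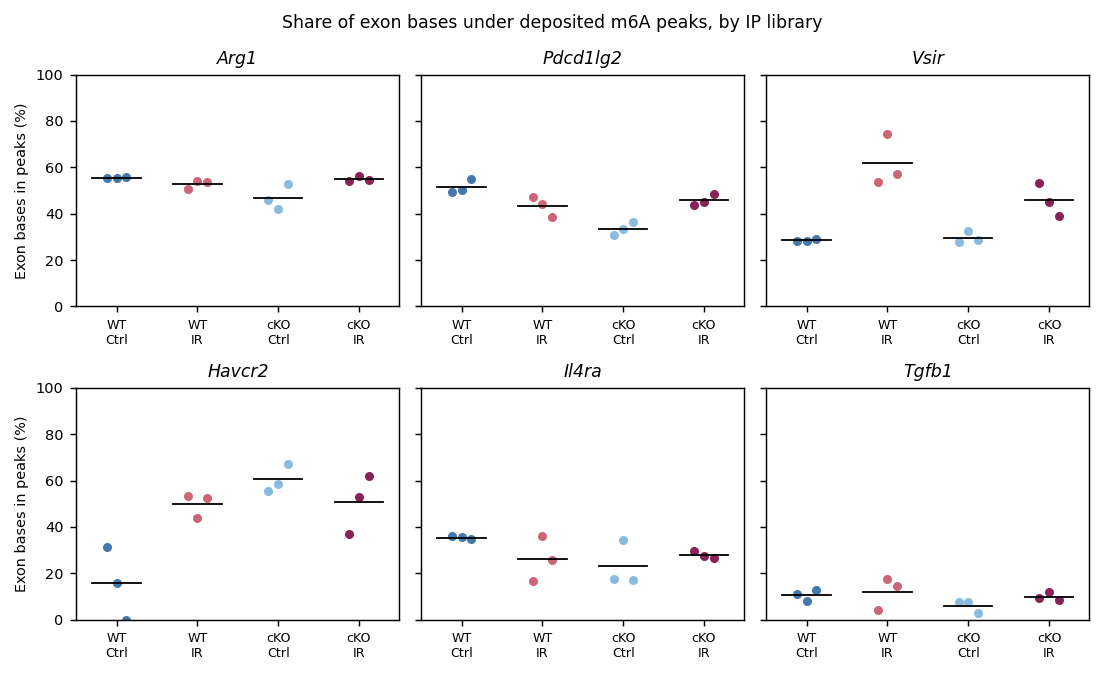
Share of exon bases under deposited m6A peaks (%, vertical axis) in each IP library of the 6 genes with consensus peaks, by label (horizontal axis, where the genotype labels of the IR libraries go against Lyz2); points are libraries and lines group means. WT Ctrl libraries of Havcr2 reach 31.3% at most, and Vsir lies higher in the IR than in the Ctrl libraries.

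Gene counts set Arg1 at the top and Il10, Ptgs2 and Nos2 at the bottom of IP over Input in WT Ctrl. There 6 of 10 genes were higher in IP than in Input and 4 lower, where 38.1% of the 17373 genes tested were higher and 37.5% lower (75.5% in all). In cKO Ctrl 5 were higher and 4 lower, where 37.8% of all genes were higher and 36.0% lower (73.7% in all). Over both IR labels 7 were higher and 3 lower, where 40.1% were higher and 40.2% lower (80.3% in all). The Cd274 call among these 7 (0.07, SE 0.03, edgeR adjusted p = 0.0342) was lost with RLE size factors, with DESeq2, with a minimum of 50 counts and without any 1 of 6 libraries (WT IR Input and IP replicates 1, cKO IR IP replicate 3 and each cKO IR Input, adjusted p = 0.0562 to 0.216). Arg1 lay at 75.4, 69.5 and 66.4 CPM in the WT Ctrl IP libraries and at 1.92, 1.93 and 2.49 CPM in WT Ctrl Input. The IP libraries were thus all far above the Inputs, with a log2 IP over Input of 5.06 (SE 0.09, edgeR adjusted p = 4.02e-31), rank 137 from the top of 17373 genes. In cKO Ctrl the value for Arg1 was 4.13 (SE 0.09), rank 221.

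The PD-1 ligand Pdcd1lg2 came next in WT Ctrl, with IP levels of 47.1, 46.6 and 44.1 CPM over Input levels of 12.2, 13.5 and 10.1 CPM (log2 1.94, SE 0.07, edgeR adjusted p = 3.95e-23). Vsir followed with 596, 598 and 601 CPM in IP over 297, 295 and 290 CPM in Input (log2 1.02, SE 0.03). Il4ra (0.89) and Havcr2 (0.87) were close to Vsir, and Tgfb1 (0.19) was little above its Input. None of these 5 genes had IP and Input libraries that overlapped in WT Ctrl. Cd274, the more abundant PD-1 ligand, was near parity at −0.09 (SE 0.04, edgeR adjusted p = 0.0449), a call lost without any 1 of 3 libraries (WT Ctrl Input replicate 3, WT Ctrl IP replicates 2 and 3, adjusted p = 0.0526 to 0.0811).

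The enzymes Ptgs2 and Nos2 and the cytokine Il10 were lower in IP than in Input. Ptgs2 stood at 0.619, 0.834 and 1.01 CPM in WT Ctrl IP against 13.8, 13.1 and 13.4 CPM in Input, a log2 value of −4.02 (SE 0.14, edgeR adjusted p = 5.12e-23). Nos2 had 15 counts over the 3 WT Ctrl IP libraries against 210 in Input, so that Input exceeded IP 15.8-fold after scaling (95% interval 9.34 to 28.7, counting error only). Il10 had 1 count against 83, a ratio of 93.5 with an interval of 16.3 to 3740. In cKO Ctrl Il10 had 0 against 186 counts, at least 69.2-fold lower in IP with a floor of 3 counts over the group. All genes with a log2 value under −3 made up 5.55% of those tested in WT Ctrl and 3.85% in cKO Ctrl. The macrophage list summed to 1626 to 2019 CPM in the IP libraries and a list of 6 tumour epithelium genes to 87.7 to 128.7 CPM, against 5.59 to 8.05 CPM of the latter in the Inputs. Their part in these values was not tested.

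**Figure D2:**
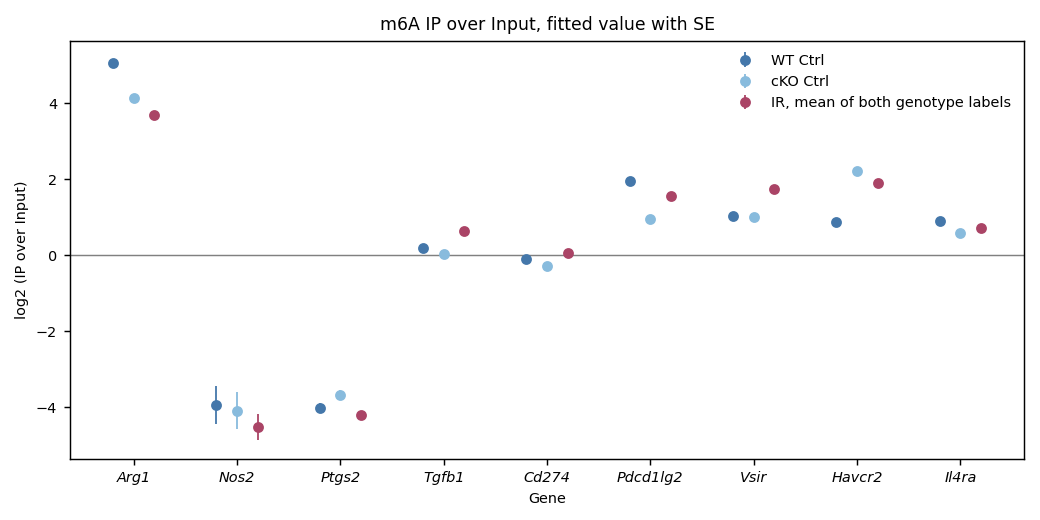
Log2 of m6A IP over Input (vertical axis, fitted value with SE, 3 IP and 3 Input libraries for each Ctrl group and 6 of each for IR) for 9 genes, with Il10 left out because of its counts of 0 and 1. Arg1 lies at 5.06 in WT Ctrl and 4.13 in cKO Ctrl, and Nos2 and Ptgs2 lie below −3.

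Per kilobase of exon, the Input levels spanned from Tgfb1 at 92.6 ± 2.28 CPM per kb in WT Ctrl (SD, n = 3) to Nos2 at 0.23 ± 0.03. Between them stood Vsir (58.7), Cd274 (49.1), Il4ra (31.3), Pdcd1lg2 (6.1), Ptgs2 (2.92), Havcr2 (2.77), Arg1 (0.949) and Il10 (0.307). The libraries of Ptgs2 and Havcr2 overlapped, as did those of Il10 and Nos2, and the other neighbours in this order did not. Both arginine-consuming enzymes were among the 3 rarest of the 10 transcripts, with 128 to 173 Arg1 counts in each WT Ctrl Input. In both IR groups Cd274 stood above Vsir, at 67.0 against 41.7 CPM per kb in WT IR and 63.5 against 43.1 in cKO IR.

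Irradiation moved most of the 10 genes in WT cells, and more of them up than down. In WT IR against WT Ctrl 6 rose (Arg1, Nos2, Ptgs2, Cd274, Pdcd1lg2 and Il4ra), 2 fell (Tgfb1 and Vsir) and 2 did not pass the test (Il10 and Havcr2). Over all genes tested 14.7% rose and 17.0% fell (31.7% in all), and the median log2 fold change was 0.36 for the 10 genes and 0.0057 for all. Neutrophil genes moved with this contrast: the summed level of 10 of them was 3249 to 3360 CPM in WT Ctrl and 523 to 555 in WT IR, and all 10 fell, and 5 erythroid genes summed to 27.4 to 29.9 CPM in WT IR and at most 0.0669 in the other Inputs. Dendritic cell genes summed to 426 to 439 CPM in WT Ctrl and 648 to 673 in WT IR, with 4 of 5 tested higher, and eosinophil genes to 21.1 to 22.3 and 3.60 to 3.79 CPM, with 3 of 5 lower. Macrophage genes summed to 5993 to 6166 CPM in WT Ctrl and 5223 to 5749 in WT IR, with 5 of 8 lower and 0 higher. Of 6 monocyte genes 4 were lower and 1 higher. The mitochondrial share of counts was 4.61 to 4.84% in WT Ctrl and 6.13 to 7.25% in WT IR. The part of these lists and of this share in the results was not tested.

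Arg1 had the largest change among the genes called. Its Input levels were 1.92, 1.93 and 2.49 CPM in WT Ctrl and 5.0, 4.54 and 5.63 CPM in WT IR. All irradiated libraries lay above all controls, at a 2.4-fold difference (log2 1.26, SE 0.15, edgeR adjusted p = 1.24e-06). Nos2, the other arginine-consuming enzyme, was at 0.928, 0.946 and 1.17 CPM in WT Ctrl and at 1.9, 1.16 and 1.97 CPM in WT IR, and replicate 2 of WT IR overlapped the controls. Its log2 fold change of 0.73 (SE 0.24, edgeR adjusted p = 0.0277) lost the call without any 1 of 4 libraries (WT Ctrl replicates 1 and 2, WT IR replicates 1 and 3, adjusted p = 0.0669 to 0.124). Ptgs2 rose from 13.8, 13.1 and 13.4 to 16.8, 16.5 and 18.1 CPM (log2 0.36, SE 0.07, edgeR adjusted p = 0.000313), with no overlap.

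Among the ligands and receptors of T cell inhibition the direction was mixed. Cd274 rose from 178, 177 and 178 CPM to 218, 264 and 246 CPM (log2 0.45, SE 0.05, edgeR adjusted p = 2.56e-07), and Pdcd1lg2 from 12.2, 13.5 and 10.1 to 15.5, 14.7 and 15.5 CPM (log2 0.35, SE 0.09, edgeR adjusted p = 0.00429). Neither pair of groups overlapped. Vsir went the other way, from 297, 295 and 290 CPM to 211, 207 and 211 CPM (log2 −0.49, SE 0.03, edgeR adjusted p = 3.4e-10). Havcr2 was at 7.41, 7.03 and 8.18 CPM and then 8.06, 8.89 and 8.06 CPM, overlapping, and did not pass the test (edgeR adjusted p = 0.281). Il4ra rose by 0.36 on the log2 scale (SE 0.04), from 187 to 188 CPM up to 229 to 250 CPM.

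The 2 cytokines did not rise. Tgfb1 fell from 472, 475 and 454 CPM to 411, 398 and 397 CPM (log2 −0.21, SE 0.03, edgeR adjusted p = 2.77e-05), without overlap. Il10 was rare, with 29, 24 and 30 counts in WT Ctrl and 12, 3 and 19 in WT IR. All WT IR libraries lay below the controls, but the log2 difference of −1.12 (SE 0.45) did not pass with edgeR (adjusted p = 0.0678). DESeq2 called it (adjusted p = 0.0323), as did edgeR without WT IR replicate 3 (log2 −1.68, adjusted p = 0.0212), and without WT IR replicate 2, the library with 3 counts, the difference was −0.67 (adjusted p = 0.269).

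**Figure D3:**
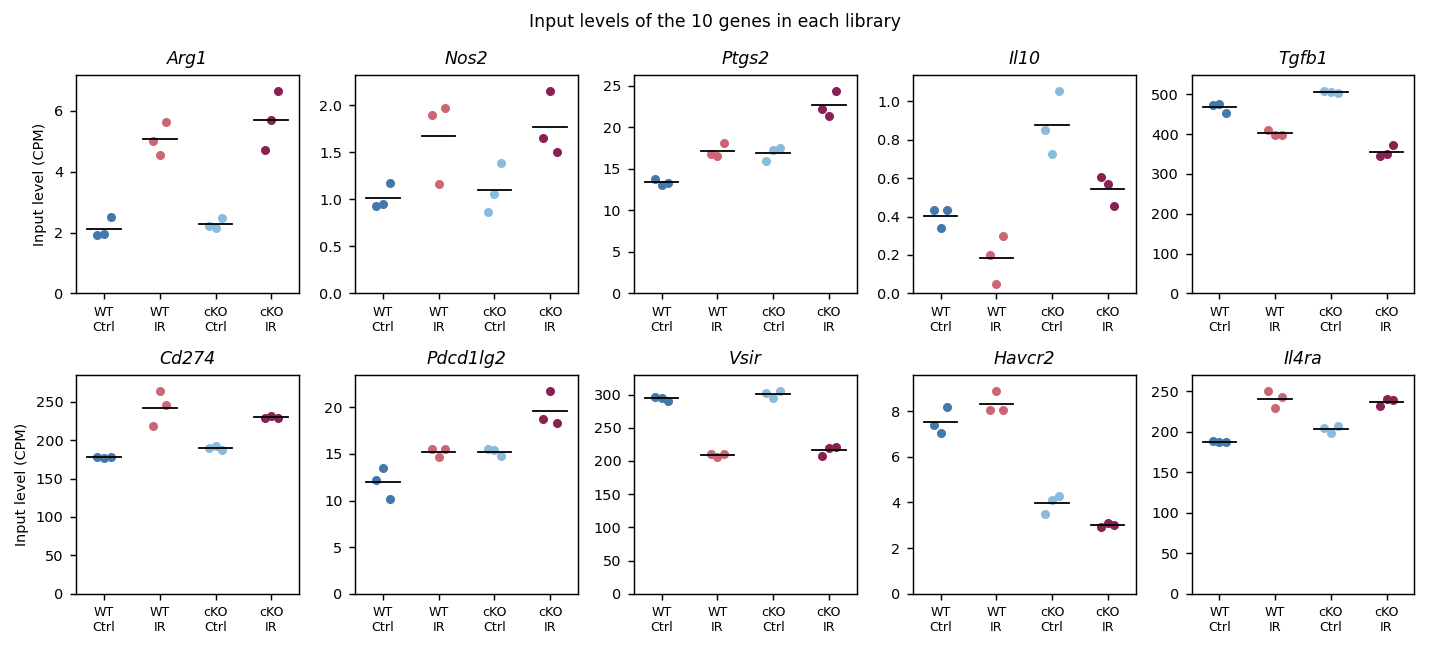
Input level (CPM, vertical axis) of each of the 10 genes in the 12 Input libraries by group (horizontal axis); points are libraries and lines group means, and the scale differs between genes. Arg1 lies between 4.54 and 6.66 CPM in the IR groups and between 1.92 and 2.49 CPM in the Ctrl groups, and Havcr2 is lower in both cKO groups.

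In cKO cells the irradiated libraries differed from their controls in 9 of the 10 genes, where 45.6% of all genes did (21.8% rose and 23.8% fell). The same 6 genes rose and Tgfb1, Vsir and Havcr2 fell, and Il10 did not pass the test (log2 −0.67, SE 0.39, edgeR adjusted p = 0.177). Arg1 went from 2.22, 2.14 and 2.48 CPM to 4.72, 5.69 and 6.66 CPM (log2 1.33, SE 0.15, edgeR adjusted p = 2.45e-07). Nos2 rose by 0.69 (SE 0.24), a call lost without any 1 of 3 libraries (cKO Ctrl replicates 1 and 2, cKO IR replicate 2, adjusted p = 0.0664 to 0.128). Ptgs2 (0.43), Pdcd1lg2 (0.38), Cd274 (0.29) and Il4ra (0.24) rose by less than Arg1. Tgfb1, at 509, 505 and 504 CPM in cKO Ctrl and 345, 350 and 371 CPM in cKO IR, fell by 0.50 (log2, SE 0.03, with an edgeR adjusted p of 1.56e-10), and Vsir fell by 0.46. Havcr2 went from 3.48, 4.11 and 4.30 CPM to 2.94, 3.10 and 3.03 CPM, with all irradiated libraries below the controls (log2 −0.38, SE 0.11, edgeR adjusted p = 0.00779). The 10 neutrophil genes summed to 1376 to 1387 CPM in cKO Ctrl and 500 to 521 CPM in cKO IR, and all 10 fell. Macrophage genes were lower in cKO IR for 7 of 8 and higher for 1 (6577 to 6768 against 5666 to 5899 CPM). Monocyte genes were lower for 5 of 6 and higher for 0 (1620 to 1651 against 942 to 950 CPM). Dendritic cell genes rose here too in 3 of 5 tested (486 to 491 against 743 to 778 CPM), and the mitochondrial share was 5.34 to 5.51% in cKO Ctrl and 3.39 to 3.75% in cKO IR. Their part was not tested.

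Tested directly, the irradiation effect differed between the genotypes for 2 of the 10 genes, Tgfb1 and Havcr2, against 30.2% of all genes. The effect on Tgfb1 was lower in cKO by a log2 value of 0.28 (SE 0.05, edgeR adjusted p = 7.7e-05), and that on Havcr2 was lower by 0.53 (SE 0.15, edgeR adjusted p = 0.00971). For the 2 arginine enzymes the differences were 0.07 (SE 0.21) for Arg1 and −0.03 (SE 0.34) for Nos2, within their errors. Cd274 had a difference of −0.16 (SE 0.07, edgeR adjusted p = 0.0773), which passed without WT IR replicate 1 (−0.24, adjusted p = 4.48e-05). That replicate has the lowest Cd274 of its group, 218 CPM. Cd274 also passed without a count filter (−0.15, edgeR adjusted p = 0.0321) and with at least 50 counts in 3 libraries (−0.18, edgeR adjusted p = 0.0489). Il4ra had −0.12 (edgeR adjusted p = 0.0686) and passed without WT IR replicate 2 (−0.16, adjusted p = 0.00777). It also passed with at least 50 counts in 3 libraries (−0.14, edgeR adjusted p = 0.0309).

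**Figure D4:**
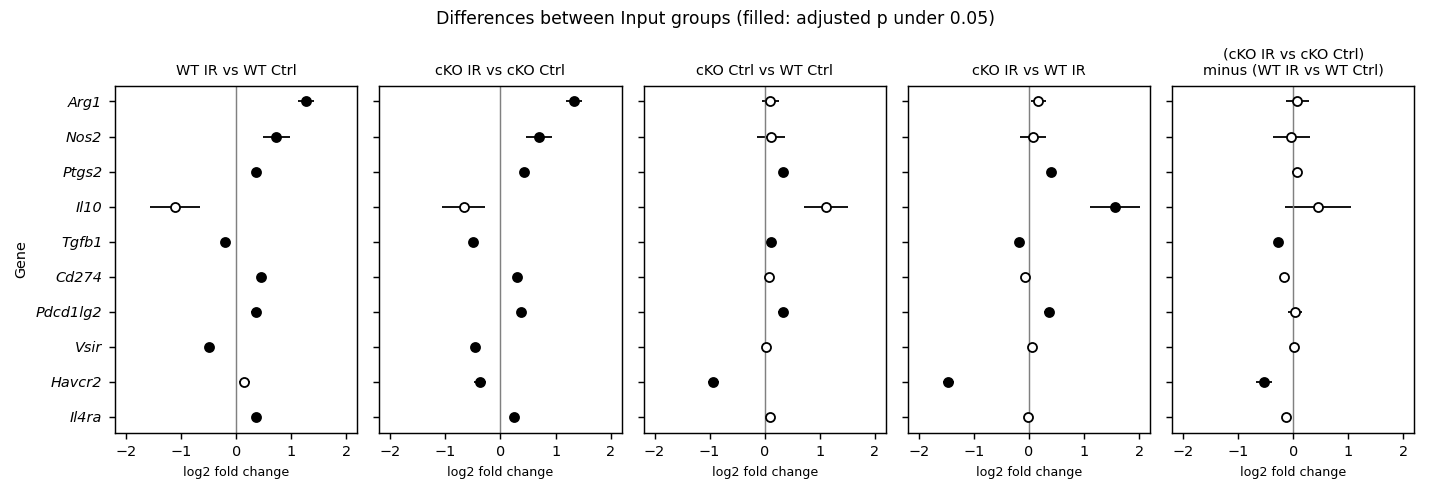
Log2 fold change with SE (horizontal axis) of the 10 genes (vertical axis) in the 5 Input comparisons, from 12 libraries; filled points have an edgeR adjusted p under 0.05. Arg1 is at 1.26 in WT and 1.33 in cKO under irradiation, and Havcr2 is at −0.94 and −1.46 in the comparisons of cKO with WT.

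Between libraries labelled cKO and WT, Havcr2 had the widest gap that passed the test in both treatments. In Ctrl it was at 7.41, 7.03 and 8.18 CPM in WT and 3.48, 4.11 and 4.30 CPM in cKO (log2 −0.94, SE 0.10, edgeR adjusted p = 1.49e-06). In IR it was at 8.06, 8.89 and 8.06 CPM in WT and 2.94, 3.10 and 3.03 CPM in cKO (log2 −1.46, SE 0.11, edgeR adjusted p = 7.03e-10). The cKO libraries were below the WT libraries in both, by 1.91-fold and 2.76-fold. In Ctrl 4 of 10 genes differed, 3 higher and 1 lower, where 8.05% of all genes were higher and 7.61% lower (15.7% in all). In IR 5 of 10 differed, 3 higher and 2 lower, where 23.9% were higher and 23.8% lower (47.7% in all). Neutrophil genes were lower in cKO Ctrl than in WT Ctrl for 9 of 10 listed and higher for 1. In cKO IR against WT IR 8 of the 10 were lower and 1 higher. Macrophage genes were higher in cKO Ctrl for 6 of 8 and lower for 1, and in cKO IR higher for 4 and lower for 3. Of 6 monocyte genes 3 were higher and 2 lower in cKO Ctrl, and 4 were higher and 2 lower in cKO IR. Mast cell and basophil genes were lower in cKO Ctrl for 4 of 4 tested, and in cKO IR 1 was higher and 1 lower. All 5 erythroid genes were lower in cKO IR. The part of these lists in the differences was not tested.

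Ptgs2 and Pdcd1lg2 were higher in cKO under both treatments. Ptgs2 was at 13.8, 13.1 and 13.4 CPM in WT Ctrl and 15.9, 17.3 and 17.5 CPM in cKO Ctrl (log2 0.33, SE 0.07, edgeR adjusted p = 0.00164), and at 16.8, 16.5 and 18.1 CPM in WT IR and 22.2, 21.3 and 24.4 CPM in cKO IR (0.40, SE 0.07, edgeR adjusted p = 3.78e-05). Pdcd1lg2 differed by 0.34 in Ctrl (SE 0.09, edgeR adjusted p = 0.0113) and by 0.36 in IR (SE 0.09, edgeR adjusted p = 0.0016). The groups overlapped in neither gene. The Ctrl call of Pdcd1lg2 was lost without WT Ctrl replicate 3, the lowest of its group (log2 0.23, adjusted p = 0.0827), and with it Tgfb1, so that 2 of the 10 genes were then called.

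The cytokines differed in opposite directions under IR. Il10 had 12, 3 and 19 counts in WT IR and 41, 38 and 28 in cKO IR, and was 2.95-fold higher in cKO IR (log2 1.56, SE 0.45, edgeR adjusted p = 0.00662). In Ctrl it had 29, 24 and 30 counts in WT and 56, 56 and 74 in cKO, also without overlap. The log2 difference of 1.11 (SE 0.40) did not pass in the main edgeR fit (adjusted p = 0.0652), nor with any 1 of the 6 libraries left out. It passed with DESeq2 (adjusted p = 0.0223). With edgeR it also passed without a count filter (adjusted p = 0.0491) and with only the 6 libraries of the contrast (adjusted p = 0.0141). Tgfb1 was 0.11 higher in cKO among the Ctrl libraries (SE 0.03, edgeR adjusted p = 0.0295) and 0.18 lower among the IR libraries (SE 0.03, edgeR adjusted p = 0.000118). The Ctrl call for Tgfb1 was lost without any 1 of 5 of its 6 libraries (all but WT Ctrl replicate 2, adjusted p = 0.0637 to 0.152). Arg1, the enzyme with the largest irradiation effect, was at a log2 difference of 0.10 (SE 0.16) in Ctrl and 0.17 (SE 0.14) in IR, and its libraries overlapped in both. Nos2, Cd274, Vsir and Il4ra did not pass either test in the main fit. In Ctrl all cKO libraries of Cd274 and Il4ra nevertheless lay above the WT libraries. With only the 6 libraries of that contrast both passed (Cd274 0.08, edgeR adjusted p = 0.011, and Il4ra 0.10, edgeR adjusted p = 0.00245). Cd274 passed in IR without WT IR replicate 1 (−0.15, adjusted p = 0.000153).

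In the IP libraries of Ctrl, Arg1 was lower in cKO although its Input was not. Arg1 IP levels were 75.4, 69.5 and 66.4 CPM in WT Ctrl and 39.2, 40.0 and 40.9 CPM in cKO Ctrl, with no overlap (log2 −0.82, SE 0.06, edgeR adjusted p = 6.84e-12). Pdcd1lg2 IP levels were 47.1, 46.6 and 44.1 CPM in WT Ctrl and 28.8, 29.6 and 29.4 CPM in cKO Ctrl (log2 −0.65, SE 0.06), whereas its Input was higher in cKO. Havcr2 went the opposite way, with 14.4, 12.9 and 14.1 CPM in WT Ctrl IP and 18.7, 17.7 and 18.9 CPM in cKO Ctrl IP (log2 0.42, SE 0.07, edgeR adjusted p = 3.09e-05). In all, 5 of 10 genes differed in IP level, where 26.7% of all genes did (13.1% higher and 13.7% lower). Ptgs2 and Havcr2 were higher and Arg1, Pdcd1lg2 and Il4ra lower.

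Taken relative to Input, 1 of 10 genes was higher and 5 were lower in cKO Ctrl than in WT Ctrl, where 22.6% of all genes differed (10.1% higher and 12.5% lower). IP over Input fell by a log2 value of 1.0 for Pdcd1lg2 (SE 0.09, edgeR adjusted p = 4.19e-10), by 0.92 for Arg1 (SE 0.14, edgeR adjusted p = 6.26e-06) and by 0.30 for Il4ra (SE 0.04). It was 0.19 lower for Cd274 and 0.17 lower for Tgfb1. Havcr2 was 1.34 higher (SE 0.11, edgeR adjusted p = 2.72e-11). The Havcr2 value combines its lower Input with its higher IP. Vsir, at −0.02 (SE 0.04), was within its error. The Cd274 call was lost without the 6 IR IP libraries in the fit (adjusted p = 0.0558), and the other 5 calls stood. Of 10 neutrophil genes 8 were higher and 0 lower in the same contrast, and of 8 macrophage genes 6 were lower and 1 higher. Their part in the result was not tested.

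**Figure D5:**
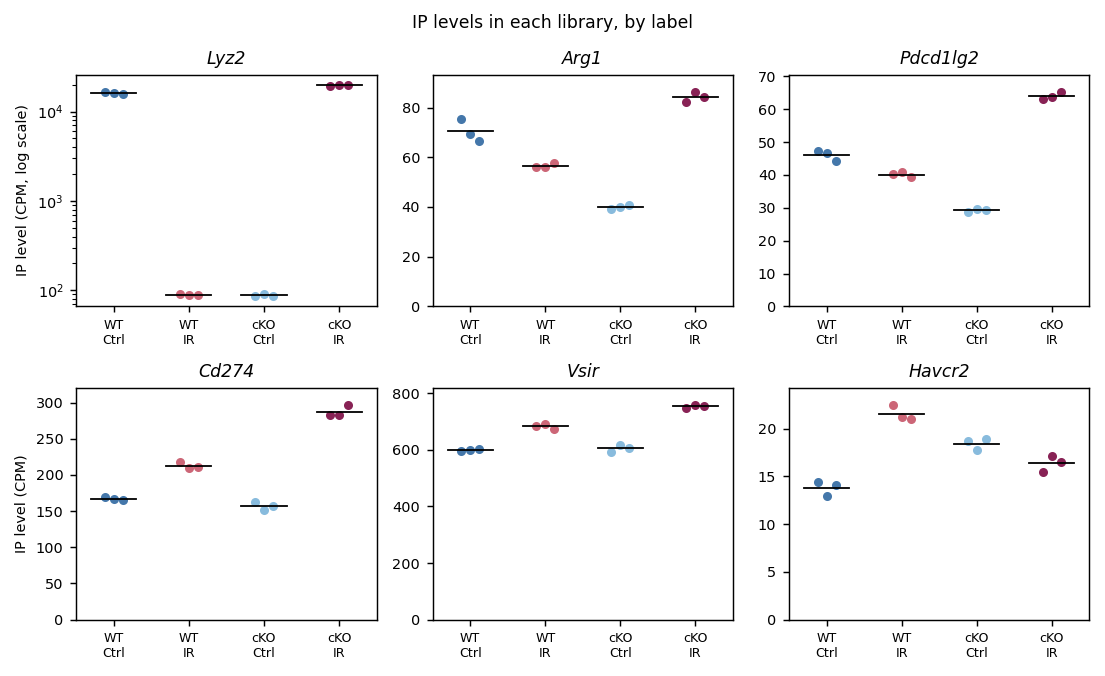
IP level (CPM, vertical axis, log scale for Lyz2) of Lyz2 and 5 of the genes in the 12 IP libraries by label (horizontal axis); points are libraries and lines group means. Lyz2 is low in the libraries labelled WT IR and cKO Ctrl, and Arg1 and Pdcd1lg2 are lower in these libraries than in those labelled WT Ctrl and cKO IR.

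Irradiation, averaged over both genotypes, was accompanied by a relative loss of Arg1 from the IP and a gain of Vsir. IP over Input was higher in IR for 4 of 10 genes and lower for 2, where 25.3% of all genes were higher and 23.1% lower (48.4% in all). Arg1 fell by 0.91 (SE 0.09, edgeR adjusted p = 2.9e-10), although its IP level rose by 0.38 (SE 0.05). Its Input had risen more than its IP. Vsir gained 0.74 (SE 0.03, edgeR adjusted p = 1.24e-21), with a falling Input and an IP level that rose by 0.25 (SE 0.02), and Tgfb1 gained 0.52 (SE 0.03) in the same way. Havcr2 (0.36, SE 0.08) and Cd274 (0.25, SE 0.04) were also higher. Ptgs2 was lower by 0.36 (SE 0.14, edgeR adjusted p = 0.0368), a call lost without any 1 of 11 of the 24 libraries (adjusted p = 0.0512 to 0.147). Pdcd1lg2, at 0.11 (edgeR adjusted p = 0.176), passed without WT Ctrl Input replicate 3 (0.17) or cKO IR Input replicate 2 (0.16). In IP level itself, 7 of 10 genes were higher in IR and Nos2, Il10 and Ptgs2 did not pass, where 27.2% of all genes were higher and 27.8% lower (55.1% in all). The gain was largest for Cd274 among the 7, at 0.61 (SE 0.03). All 10 neutrophil genes were higher in IP over Input under irradiation.

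By label, the 2 IR groups are given side by side only, since Lyz2 goes against their labels. For Arg1, log2 IP over Input was 3.48 with the label WT IR and 3.89 with the label cKO IR. For Pdcd1lg2 it was 1.40 and 1.71, for Vsir 1.71 and 1.80, and for Havcr2 1.37 and 2.43. Each of these pairs sets IP libraries against the Inputs of the same label. The IP levels themselves were 56.0, 56.1 and 57.7 CPM for Arg1 with the first label and 82.1, 86.4 and 84.3 CPM with the second. For Cd274 they were 217, 210 and 211 CPM and 283, 283 and 297 CPM, so that the labelled groups did not overlap in either gene.

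The pathways around these genes were followed in 6 lists that exclude them. In the list of 18 arginine and nitric oxide genes, of which 14 were tested, 3 rose and 7 fell in WT IR against WT Ctrl. In cKO IR against cKO Ctrl the direction differed, with 8 of the 14 rising and 2 falling. Tested directly, the irradiation effect was higher in cKO for 5 and lower for 1, where 15.0% of all genes were higher and 15.2% lower. Over all genes tested 14.7% rose and 17.0% fell in WT IR against WT Ctrl, and 21.8% and 23.8% in cKO IR against cKO Ctrl. In cKO IR against WT IR 23.9% were higher and 23.8% lower. In WT IR Slc7a2, a carrier of cationic amino acids including arginine, rose (log2 0.57, SE 0.04). Slc7a1, another such carrier, fell there (−0.37, SE 0.06). In cKO IR against WT IR 8 of the 14 were higher (23.9% of all genes) and 1 lower (23.8%), with a list median of 0.19 against −0.0028 for all genes. Gch1, which starts the synthesis of the cofactor of nitric oxide synthase, was higher (0.64, SE 0.06), as were the mitochondrial arginase Arg2 (0.44, SE 0.09) and ornithine decarboxylase Odc1 (0.29, SE 0.04).

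Of 22 TGF-beta genes tested, 10 rose and 4 fell in WT IR against WT Ctrl, and 2 rose and 11 fell in cKO IR against cKO Ctrl. The lower count of 4 depended on single controls, being 2 without WT Ctrl replicate 1 and 1 without WT Ctrl replicate 2. Over all genes 14.7% rose and 17.0% fell in WT IR against WT Ctrl, and 21.8% rose and 23.8% fell in cKO IR against cKO Ctrl. Tested directly, the irradiation effect was lower in cKO for 10 of the 22, and the other 12 did not pass, where 15.2% of all genes were lower. In WT IR, Ltbp1, which holds latent TGF-beta in the matrix, rose by 1.15 (SE 0.21), Tgfb2 by 0.94 (SE 0.13) and Itgb8, a subunit of an integrin that activates TGF-beta, by 0.77 (SE 0.08). In cKO IR against WT IR 14 were lower and 2 higher, among them Ltbp1 (−1.28, SE 0.21), the TGF-beta holding receptor Lrrc32 (−0.54, SE 0.11), the target Tgfbi (−0.50, SE 0.03) and the feedback inhibitor Smad7 (−0.49, SE 0.11), all lower. Ltbp1 stood at a mean of 1.31 CPM over the Inputs and Tgfbi at 413 CPM. Over all genes 23.9% were higher and 23.8% lower in cKO IR than in WT IR.

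The IL-4 and IL-13 list holds receptor parts, signalling genes and targets. Of 14 genes tested 3 rose, 6 fell and 5 did not pass in WT IR, where Il4ra rose, and 2 rose and 11 fell in cKO IR against cKO Ctrl, with a median of −0.52 in the latter against 0.01 for all genes. Chil3, a chitinase-like protein also made by monocytes, fell by 1.92 in WT IR (SE 0.06), the lectin Mgl2 by 1.03 (SE 0.08), the nuclear receptor Pparg by 0.90 (SE 0.07) and the lectin Clec10a by 0.84 (SE 0.10). The monocyte list, which shares Chil3, summed to 1615 to 1655 CPM in WT Ctrl and 1166 to 1168 in WT IR. In cKO IR against WT IR 4 of the 14 were higher, including Chil3 (0.39, SE 0.06) and Il13ra1 (0.34, SE 0.06). Another 5 were lower, including the insulin receptor substrate Irs2 (−0.73, SE 0.05) and Klf4 (−0.47, SE 0.11). Over all genes 23.9% were higher and 23.8% lower in this contrast. The shares of all genes were 14.7% rising and 17.0% falling in WT IR, and 21.8% and 23.8% in cKO IR against cKO Ctrl.

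Of 16 prostaglandin genes tested 4 rose and 4 fell in WT IR. Ptges, the synthase that acts after Ptgs2, rose (0.43, SE 0.06) and so did the receptor Ptger4 (0.27, SE 0.04), while the constitutive cyclooxygenase Ptgs1 fell (−0.60, SE 0.06). Ptgs1 and Ptgs2 thus moved in opposite directions. In cKO IR against WT IR 5 of the 16 were higher, including Ptges2 (0.45, SE 0.07) and Ptges (0.34, SE 0.06). Another 6 were lower, including Abcc4, an exporter of prostaglandins (−0.46, SE 0.05). Over all genes 23.9% were higher and 23.8% lower in this contrast, and 14.7% rose and 17.0% fell in WT IR. Without WT IR replicate 2, 2 of the 16 fell in WT IR.

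Of 13 IL-10 genes tested 3 rose and 6 fell in WT IR, with Maf, an activator of Il10, lower (−0.43, SE 0.04) and Nfil3 higher (0.35, SE 0.04). In cKO IR against WT IR 6 were higher and 5 lower, and the higher ones included Maf (0.55, SE 0.04), the IL-1 receptor antagonist Il1rn (0.50, SE 0.05) and Socs3 (0.40, SE 0.05). Maf and Il10 were both at higher level in cKO IR than in WT IR. Of 24 other checkpoint genes 7 rose and 7 fell in WT IR. Cd80 (0.83, SE 0.08), a ligand of CD28 and CTLA-4, and Cd200 (0.75, SE 0.06) rose, and the inhibitory lectin receptor Siglece fell (−0.69, SE 0.04). In cKO IR 9 were higher than in WT IR and 4 lower. Lgals9, which encodes a ligand of TIM-3, was higher (0.67, SE 0.04), where Havcr2 itself was lower. Siglece (0.93, SE 0.04) and Cd86 (0.52, SE 0.07) were also higher. For both lists, the shares of all genes were 14.7% rising and 17.0% falling in WT IR. In cKO IR against WT IR 23.9% of all genes were higher and 23.8% lower.

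Across the 12 Input libraries, the gene whose log2 level followed each of the 10 most closely was named by Pearson's correlation over 11660 other genes. These are descriptions over 12 libraries that share treatment and genotype. Ptgs2 was closest to the chemokine gene Cxcl1 (0.97), Cd274 to Vwa5a (0.99) and then to the transcription factor Irf4 (0.98), and Vsir to Ptpro and to Nr4a1 (0.99 each). Arg1 was closest to Bmp1 (0.98), Tgfb1 to Lonp1 (0.99), Il4ra to Rftn1 (0.99), Havcr2 to Syne2 (0.99), Il10 to Lrrc20 (0.95), Pdcd1lg2 to Ankrd24 (0.95) and Nos2 to Sept4 (0.91). Among the 10 genes themselves, Arg1 and Il4ra correlated at 0.95 and Arg1 and Vsir at −0.94.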

How the data were processed

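MeRIP-seq of CD11b+ myeloid cells gave 24 libraries, grouped by their labels. Per the methods, reads were trimmed (Trimmomatic 0.39), mapped to mm10 (GRCm38) by HISAT with GENCODE vM19, and counted by gene in HTSeq. These deposited values are raw, unscaled counts. Reads assigned to no gene (3.95 to 6.55% of Input and 2.86 to 3.60% of IP counts) were left out. The authors called peaks on each IP library and strand with MACS2, and the deposited lists hold each peak's position, its score, its −log10 p and q, and its fold enrichment, a ratio to a control. Which Input served as control, and whether Input and IP shared an RNA preparation, is not given in the sources used here. Folds describe peaks within a list and were not tested between groups.

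Identifiers were matched to GENCODE vM21 (54409 of 54446). Counts were tested with the quasi-likelihood test of edgeR 4.0.16 (R 4.3.3) with TMM, for genes that reached 10 counts in 3 or more libraries, without covariates. The 12 Inputs (16090 genes) and all 24 libraries (17373 genes) were fitted separately, and Benjamini-Hochberg adjustment ran over all genes of a contrast at 0.05. Levels are CPM scaled by TMM over 24 libraries. The Input fit was tested on simulated data, for WT IR against WT Ctrl only. Consensus peaks overlapped by at least 1 base in all 3 replicates. The contrasts of IP level, the fits without the 6 IR IP libraries and the alternatives for list counts were added after seeing the data. Exon numbers and motifs refer to 1 protein-coding transcript a gene, and sequences were read from GRCm38.

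The 10 genes, the pathway lists and the marker lists were chosen with earlier results of these data known. The rule for named genes took all 10 genes, up to 4 called genes of each pathway list with the largest changes in cKO IR against WT IR and up to 4 in WT IR against WT Ctrl (mean of at least 1 CPM), and the 3 genes that correlated best with each of the 10, of which the closest are printed. Alternatives were RLE size factors, DESeq2 1.42.0, other count filters, a replicate block, fits of 6 libraries and leaving out each library. Labels give no batch or date.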

Additional observations from a re-analysis of the deposited data

Results flagged for a closer look

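The effect of irradiation on Input level differed between the genotypes for Tgfb1 (−0.28 on the log2 scale, cKO minus WT) and Havcr2 (−0.53), by the interaction term of the edgeR fit over 12 Inputs. Each fell in all 3 cKO IR libraries against all cKO Ctrl libraries. Havcr2 overlapped between WT IR and WT Ctrl.

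IP over Input differed between cKO Ctrl and WT Ctrl for 6 genes by the same kind of term in the fit of 24 libraries. The values, as cKO minus WT on the log2 scale, were −1.0 for Pdcd1lg2, −0.92 for Arg1, −0.3 for Il4ra, −0.19 for Cd274, −0.17 for Tgfb1 and 1.34 for Havcr2.

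IP over Input also differed between IR and Ctrl, averaged over genotype labels, for 6 genes. The values, as IR minus Ctrl, were −0.91 for Arg1, −0.36 for Ptgs2, 0.52 for Tgfb1, 0.25 for Cd274, 0.74 for Vsir and 0.36 for Havcr2. Groups of 3 libraries were too small for a search for single outlying samples.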

How the results depend on the processing

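Across settings other than leaving out a library, 79 of 83 counts of the 10 genes stayed within 1.5 times their value, and so did 125 of 126 counts with a library left out. For single genes 920 of 944 values and 1267 of 1332 values kept direction and call, and of the pathway list counts 333 of 348 and 405 of 432 stayed within 1.5 times. With a minimum of 50 counts the interaction counted 4 genes instead of 2, with Cd274 and Il4ra added. With only the 6 libraries of the contrast, cKO Ctrl vs WT Ctrl counted 7 instead of 4 (3870 against 2520 of all genes), and 2 to 4 genes with a library left out. With peaks of at least 4-fold 2 genes had a consensus peak in WT Ctrl and 3 in WT IR. IP over Input of Tgfb1 in cKO Ctrl, 0.02 and not called, was −0.020 with RLE size factors and with DESeq2, −0.0031 with at least 50 counts and −0.016 with 6 libraries. That of Vsir in cKO Ctrl against WT Ctrl was 0.0012 without the 6 IR IP libraries. The cause was not tested.

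With a library left out, these uncalled values crossed 0, from lowest to highest. In the interaction, Nos2 ranged from −0.24 to 0.16, Arg1 from −0.063 to 0.19 and Pdcd1lg2 from −0.071 to 0.14. In cKO IR against WT IR, Il4ra ranged from −0.057 to 0.0045 and Nos2 from −0.13 to 0.21, and in cKO Ctrl against WT Ctrl Nos2 ranged from −0.085 to 0.26. IP over Input of Nos2 in cKO Ctrl against WT Ctrl ranged from −0.30 to 0.14 and IP level of Ptgs2 in IR from −0.11 to 0.15.

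The labels give groups the same replicate numbers. Deviations of same-numbered Inputs correlated at −0.0429 to 0.0181 over 18 pairs, so no pairing of Inputs by number was seen, and 1 of 12 Inputs correlated best with its own number. These pairs of Inputs cannot show whether Input and IP shared an RNA preparation. With the replicate block, the Tgfb1 call in cKO Ctrl against WT Ctrl (0.11, adjusted p = 0.0538) and the Cd274 call in WT Ctrl IP over Input (−0.09, adjusted p = 0.0544) were lost. Il10 passed in WT IR against WT Ctrl in the edgeR fit filtered at 50 counts in 3 libraries (adjusted p = 0.045). It met that filter only through cKO Ctrl, with 56 to 74 counts. The libraries of the contrast itself held 3 to 30 counts each, so this call does not rest on deeper counts. Depth limits Il10 and Nos2 in particular, with as few as 3 Il10 counts in 1 Input, and intervals cover counting error only.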

Other observations

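The pathway lists also differed in IP over Input, and the part of cell content or RNA preparation in this was not tested. Of 16 IL-4 and IL-13 genes tested 11 were higher in IP than in Input in WT Ctrl and 11 in cKO Ctrl, with list medians of 0.98 and 1.04 on the log2 scale, where 38.1% and 37.8% of all genes were higher. Of 22 TGF-beta genes 7 were higher and 15 lower in WT Ctrl, with a median of −1.0, and the median of all genes was 0.02. Of 13 IL-10 genes 4 were higher and 8 lower. Of all genes 38.1% were higher and 37.5% lower in WT Ctrl.

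Under irradiation, averaged over both genotypes, IP over Input was higher for 11 of 13 IL-10 genes, 11 of 22 TGF-beta genes and 11 of 16 IL-4 and IL-13 genes, where 25.3% of all genes were higher. The arginine and nitric oxide list went the other way, with 4 of 15 higher and 8 lower, where 23.1% of all genes were lower. In cKO Ctrl against WT Ctrl, 14 of 24 checkpoint genes and 8 of 13 IL-10 genes were lower in IP over Input, where 12.5% of all genes were lower.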
